A study of Mus musculus with 2 samples.

Results

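The B lineage transcription factor genes Ebf1, Pax5, Spib, Pou2af1, Bach2, Irf4, Irf8 and Foxo1 were followed on 2 Affymetrix expression arrays of mouse thymocytes, 1 titled TKO and 1 titled DKO. These 8 genes were grouped by what they are known to do, and they were chosen with earlier results of these data known. Every probe set that the platform annotation assigns to 1 of them alone was taken. This gave 20 probe sets out of 34945 that carry a single gene, or 8 of 18193 genes. By the series' design text both arrays come from C57BL/6J mice that lack Cdkn2a and Ring1A and carry a floxed Ring1B gene; TKO is LckCre(+)Cdkn2a-/-Ring1A-/-Ring1Bfl/fl and DKO is LckCre(-)Cdkn2a-/-Ring1A-/-Ring1Bfl/fl. The samples' genotype field differs and reads Ring1A, Ring1B and Cdkn2a triple KO for TKO, against Ring1A and Ring1B double KO for DKO. Lck-Cre is a recombinase driven from a promoter of the T lineage; the cells were the thymocytes left after bead depletion of lineage-positive cells, the title calls them DN (double-negative), and the labels record culture in standard medium. The animals' age, their sex and the number of mice behind each RNA are not stated in the labels.

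These factors build the B cell gene programme in layers. E proteins and Foxo1 act early, Ebf1 specifies the lineage, Pax5 commits cells to it by activating B cell genes and repressing genes of other lineages, and Spib, Pou2af1, Bach2, Irf4 and Irf8 act in later B cell development and in the germinal centre and plasma cell steps. In the thymus, Notch1 signalling directs progenitors to the T lineage, and Ebf1 and Pax5 are normally little expressed in T cells. Ring1A (gene symbol Ring1) and Ring1B (Rnf2) encode the E3 ligase core of Polycomb repressive complex 1 (PRC1), which keeps developmental genes silent, often at promoters rich in CpG dinucleotides.

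All values are MAS5 signals, an array brightness in arbitrary units, with a trimmed mean of 497 on both arrays. The submitters' notes give no MAS5 settings, so the scaling applied is not known. A signal counted as measured when it reached the median of its array, 71.8 on the TKO array and 68.8 on the DKO array, and signals below that floor were raised to it before a ratio was taken. The log2 ratio is TKO minus DKO. With 1 array per genotype label there is no replicate error and no test, the number of arrays limits the precision, and the rule of size was a difference of 2-fold or more. Of the 11280 genes that had a measured signal on either array, 3.58% passed 2-fold upward and 0.532% downward on the TKO array.

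Several facts of the arrays bear on every value below. Cdkn2a, the targeted cell-cycle inhibitor gene, had a signal of 18.5 on the TKO array, below the floor, and of 679 on the DKO array, which the design text describes as Cdkn2a null. The brightest probe sets of Rnf2 (4384 on the TKO array, 4149 on the DKO array) and Ring1 (147 on the TKO array, 133 on the DKO array) were above the floor on both arrays, and whether they lie inside the deleted segments is not stated in the labels. The arrays also differed in sex-linked RNA: Xist had 16502 on the TKO array and 124 on the DKO array, and the Y-linked Eif2s3y had 55.3, below the floor, on the TKO array and 1711 on the DKO array. Genotype label, sex-linked signal and any array batch therefore cannot be told apart, so each array goes by its title below.

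Because Polycomb complexes are known for their CpG-rich targets, the 250 bases before each RefSeq transcription start of the members (GRCm38.p6, 10 windows for the 8 genes, all 8 matched by symbol) were read for CpG content and for short motifs of the factors themselves. By the samples' genotype field both arrays lack Ring1A and Ring1B, and by that reading the ratios do not compare cells with and without them. A part of PRC1 in the ratios was not tested. The 4 windows shown first span the range of CpG content, with each CpG in capitals. Spib (chr7:44532072-44532321, minus strand) and Pou2af1 (chr9:51213440-51213689, plus strand) were past 2-fold on the TKO array, and Irf8 (its first start, chr8:120736108-120736357, plus strand) and Foxo1 (chr3:52268087-52268336, plus strand) were the members that were not.
Spib: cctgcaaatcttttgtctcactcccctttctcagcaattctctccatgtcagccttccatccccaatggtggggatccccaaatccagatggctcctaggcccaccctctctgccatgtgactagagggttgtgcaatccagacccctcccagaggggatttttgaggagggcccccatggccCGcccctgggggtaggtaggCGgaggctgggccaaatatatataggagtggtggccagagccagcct
Pou2af1: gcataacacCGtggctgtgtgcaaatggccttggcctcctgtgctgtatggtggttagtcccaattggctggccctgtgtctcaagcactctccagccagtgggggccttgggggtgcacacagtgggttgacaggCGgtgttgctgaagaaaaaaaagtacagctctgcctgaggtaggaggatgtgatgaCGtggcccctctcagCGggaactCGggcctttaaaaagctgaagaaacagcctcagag
Irf8: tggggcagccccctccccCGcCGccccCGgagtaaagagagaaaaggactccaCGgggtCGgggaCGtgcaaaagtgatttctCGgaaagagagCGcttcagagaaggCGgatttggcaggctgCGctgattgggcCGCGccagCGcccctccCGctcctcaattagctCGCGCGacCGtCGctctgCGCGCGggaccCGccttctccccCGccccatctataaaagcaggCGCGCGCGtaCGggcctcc
Foxo1: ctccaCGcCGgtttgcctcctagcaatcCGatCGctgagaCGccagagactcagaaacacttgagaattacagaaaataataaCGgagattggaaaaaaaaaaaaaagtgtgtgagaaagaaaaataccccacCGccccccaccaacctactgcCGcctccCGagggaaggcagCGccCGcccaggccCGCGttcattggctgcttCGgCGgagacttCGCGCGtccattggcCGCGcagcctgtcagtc
The ratio of observed to expected CpG was 0.10 for Spib, with 2 CpG dinucleotides, and 0.26 for Pou2af1, with 5. It was 1.03 for this Irf8 window, with 29 CpG dinucleotides, and 1.04 for Foxo1, with 20. The other windows lay at 0.99 and 0.85 for the 2 Ebf1 starts, 0.88 for Pax5, 0.45 for Bach2, 0.44 for Irf4 and 0.44 for the second Irf8 start, against a median of 0.37 over 32851 windows of the same length. Ebf1 and Pax5, past 2-fold on the TKO array, had CpG-rich windows like Foxo1 and the first start of Irf8, genes that were not past it, while Spib and Pou2af1, past it too, had CpG-poor ones. The Bach2 window lies within the RefSeq span of the gene, so that other starts may exist outside it.

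Motif matches in the same windows were few. They are shown with up to 20 bases on either side, the match in capitals, because they mark where a member's promoter holds the letters of another member's site; a match is a description and not a binding site. The windows are chr11:44617926-44617974 of the first Ebf1 start, chr4:32417399-32417434 of Bach2, chr3:52268225-52268274 of Foxo1 and chr8:120738414-120738459 of the second Irf8 start, all on the plus strand.
Ebf1: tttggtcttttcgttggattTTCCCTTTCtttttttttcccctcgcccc
Bach2: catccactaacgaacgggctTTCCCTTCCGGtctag
Foxo1: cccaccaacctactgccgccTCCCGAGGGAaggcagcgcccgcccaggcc
Irf8: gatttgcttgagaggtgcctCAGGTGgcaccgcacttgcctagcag
The first Ebf1 window held the IRF motif GAAANNGAA on the minus strand, 154 bases before the start, a motif found in 7.13% of all windows. The Bach2 window held the ETS-IRF composite motif GGAANNGAA and the ETS motif CCGGAAG, overlapping each other on the minus strand, the composite 16 and the ETS motif 12 bases before the start, and these letters occur in 6.99% and 6.91% of all windows. The Foxo1 window held the EBF motif CCCNNGGGA on both strands of the same stretch (5.6% of all windows), and the second Irf8 window held the E-box CAGGTG (17.2%). The E-box CAGCTG, the octamer ATGCAAAT and the FOXO motif TGTTTAC were searched on both strands too, occur in 13.0%, 1.6% and 3.17% of all windows, and matched in 0 of the 10 member windows. Pax5, Spib, Pou2af1 and Irf4 held none of the motifs in these letters.

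Of the 8 members, 6 passed 2-fold upward on the TKO array, 0 passed it downward, and Irf8 and Foxo1 did neither, each gene read from the probe set brightest on average over both arrays. Over all measured genes 3.58% passed upward and 0.532% downward. As the members were chosen with earlier results of these data known, this comparison only describes them. The members had a median of 1.43 on the log2 ratio scale (2.70-fold), beside -0.03 over all measured genes. Of the 20 probe sets, 15 were above the floor on both arrays, 3 on the TKO array alone and 2 on neither. The 18 measured ones all had positive ratios, 11 passed 2-fold upward and 0 downward, beside 2.97% upward and 0.51% downward among 20400 measured probe sets. The 3 measured on the TKO array alone could only have a positive ratio, and probe sets of 1 gene are not independent. In these bulk cells, more cells of a type and more RNA per cell cannot be told apart.

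**Figure D1:**
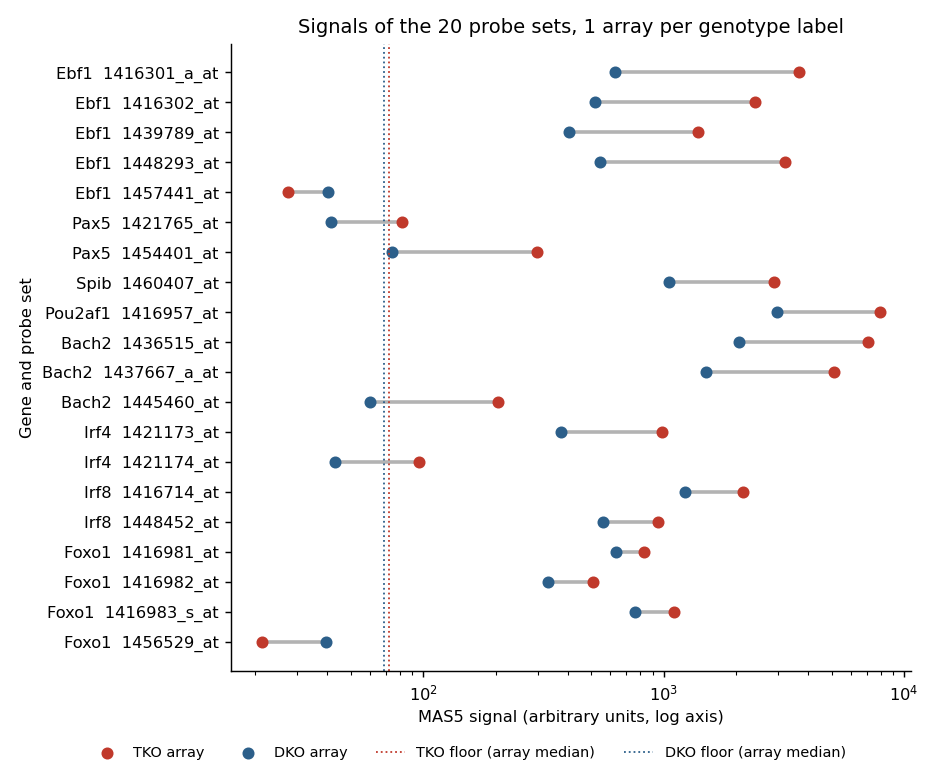
MAS5 signals (x axis, arbitrary units, log scale) of the 20 member probe sets (rows), with the TKO array in red and the DKO array in blue; dotted lines are the floors at 71.8 (TKO) and 68.8 (DKO). The TKO point lies to the right of the DKO point in the 18 measured probe sets, and the 2 rows with the reverse order, 1 of Ebf1 and 1 of Foxo1, lie below both floors.

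Ebf1, the factor that specifies the B lineage and opens chromatin at B cell genes, had the highest ratio of the members. Its probe set 1416301_a_at had a signal of 3649 on the TKO array and 630 on the DKO array, 5.79-fold higher. Probe set 1448293_at read 3211 on the TKO array and 543 on the DKO array, 5.91-fold higher. Probe set 1416302_at had 2406 on the TKO array and 520 on the DKO array, 4.63-fold higher. The fourth, 1439789_at, had 1391 on the TKO array and 406 on the DKO array, 3.42-fold higher. The last Ebf1 set, 1457441_at, was below the floor on both arrays, at 27.4 on the TKO array and 40.3 on the DKO array. The 4 measured sets thus ran from a log2 ratio of 1.78 to 2.56, and 25 of the 11280 measured genes (0.222%) had a higher ratio than the gene's representative value of 2.53.

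Pax5, the commitment factor that Ebf1 helps to switch on in B cell progenitors, was dim on both arrays. Its brighter probe set, 1454401_at, had a signal of 299 on the TKO array and 74.1 on the DKO array, 4.04-fold higher, and the DKO value stood just above the floor of 68.8. Its other probe set, 1421765_at, had 81.6 on the TKO array and 41.4, below the floor, on the DKO array, so that the bound was only at least 1.18-fold higher. The Pax5 value therefore rests on 1 probe set. With a stricter floor, the 75th percentile, both sets were below it and Pax5 had no ratio; as the mean over its probe sets the log2 ratio was at least 1.13, a lower bound because the dimmer set is one.

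Spib and Pou2af1 were read by 1 probe set each. Spib, an ETS factor related to Spi1 (PU.1) that B cells and plasmacytoid dendritic cells use, had 2885 on the TKO array and 1055 on the DKO array, 2.73-fold higher. Pou2af1 (OCA-B), the coactivator that octamer-binding factors recruit at immunoglobulin and other B cell promoters, had 7938 on the TKO array and 2974 on the DKO array, 2.67-fold higher. Both signals stood far above the floor on either array, and the log2 ratios were 1.45 for Spib and 1.42 for Pou2af1.

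Bach2, a repressor that holds B cells short of the plasma cell state and is also used by T cells, was higher by all 3 of its probe sets. Probe set 1436515_at had 7098 on the TKO array and 2053 on the DKO array, 3.46-fold higher. Probe set 1437667_a_at had 5112 on the TKO array and 1509 on the DKO array, 3.39-fold higher. The dim set 1445460_at had 205 on the TKO array and 60.1, below the floor, on the DKO array, at least 2.98-fold higher. The log2 ratios of the sets measured on both arrays were 1.79 and 1.76, and that of the dim set was at least 1.58.

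The interferon regulatory factors Irf4 and Irf8 had ratios of different size. Irf4, which pairs with ETS factors at immunoglobulin light chain enhancers and drives plasma cell formation at high levels, had 990 on the TKO array and 375 on the DKO array by probe set 1421173_at, 2.64-fold higher. Its second set, 1421174_at, had 95.9 on the TKO array and 43.0, below the floor, on the DKO array, at least 1.39-fold higher. Irf8, a factor of B cells, dendritic cells and monocytes, had 2139 on the TKO array and 1223 on the DKO array by 1416714_at, 1.75-fold higher. Its second set, 1448452_at, gave 947 on the TKO array and 560 on the DKO array, 1.69-fold higher. The Irf8 sets were close together, at log2 ratios of 0.81 and 0.76, under the 2-fold rule. As the mean over its probe sets Irf4 was at a log2 ratio of at least 0.94, a lower bound because the second set is one, so that choice does not settle whether Irf4 passed 2-fold.

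Foxo1, a forkhead factor that both B and T progenitors use, for example at Il7r and the Rag genes, had the smallest ratios. Probe set 1416983_s_at had 1101 on the TKO array and 764 on the DKO array, 1.44-fold higher. The sets 1416982_at and 1416981_at had 509 and 830 on the TKO array, against 332 and 635 on the DKO array, 1.53-fold and 1.31-fold higher. A further set, 1456529_at, was below the floor on both arrays, at 21.4 on the TKO array and 39.3 on the DKO array. Foxo1 was exceeded by 1115 measured genes (9.88%) and Irf8 by 590 (5.23%), while between 71 and 201 genes exceeded Pax5, Bach2, Spib, Pou2af1 and Irf4.

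Placed in order by log2 ratio, the members ran Ebf1 (2.53), Pax5 (2.01), Bach2 (1.79), Spib (1.45), Pou2af1 (1.42), Irf4 (1.40), Irf8 (0.81) and Foxo1 (0.53). Across 4794 genes with at least 2 probe sets measured on both arrays, the ratios of the 2 brightest sets differed with a robust SD of 0.29, which gauges disagreement between probe sets and holds no error between animals or hybridisations. The steps from Pax5 to Bach2, from Spib to Pou2af1 to Irf4, and from Irf8 to Foxo1 were smaller than that, so these neighbours in the order were not distinguishable on this scale. A larger step is not thereby shown to be real, since the SD is no test. It also does not cover Pax5, whose dimmer probe set was below the DKO floor. The place of Pax5 rests on its brighter set, near that floor on the DKO array. With a single ratio per gene, likeness of pattern to other genes could not be assessed.

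**Figure D2:**
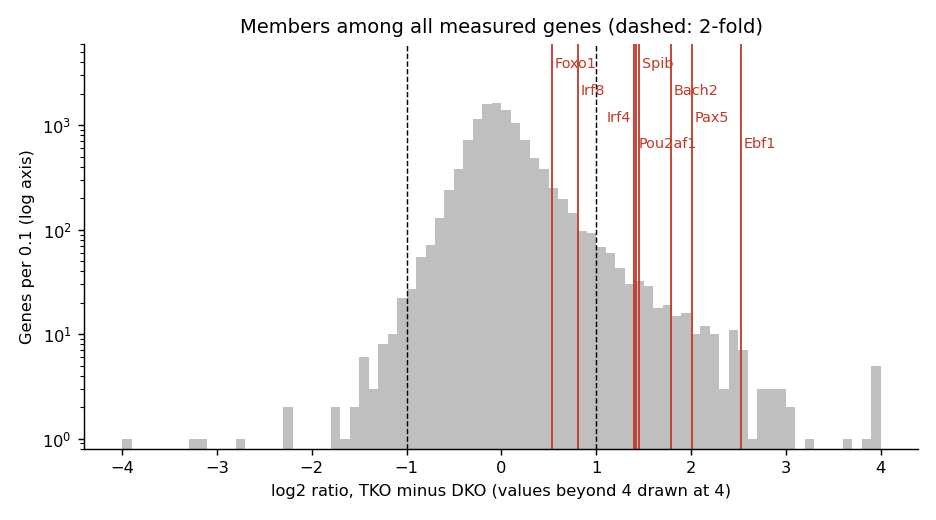
Histogram of the log2 ratios (TKO minus DKO, x axis) of the 11280 measured genes (y axis, genes per bin of 0.1, log scale), with a red line for each member and dashed lines at 2-fold. Irf8 and Foxo1 stand inside the dashed lines, and the other 6 members stand to the right of them, Ebf1 farthest at 2.53.

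The chromosomal neighbours of the members were not past 2-fold where they were measured. For each member the nearest protein-coding gene with a probe set was taken on either side, by the gene order of the RefSeq table, which gave 16 neighbours, 11 of them measured. Of the 11, 0 were 2-fold higher or lower, beside 3.58% upward and 0.532% downward over all measured genes, so the count does not set them apart, and their log2 ratios ran from -0.36 to 0.61 with a median of 0.08. Beside Ebf1, the ubiquitin ligase gene Rnf145 had 4143 on the TKO array and 2719 on the DKO array (log2 ratio 0.61), and Clint1 had 5452 on the TKO array and 4853 on the DKO array (0.17). Beside Pax5, the kinase gene Melk had a log2 ratio of 0.08 and Zcchc7 of 0.27. Beside Bach2, the kinase gene Map3k7 had -0.11, and beside Irf4, the phosphatase gene Dusp22 had 0.35 and Exoc2 -0.04. Both neighbours of Pou2af1 were below the floor, so nothing can be said for that locus.

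**Figure D3:**
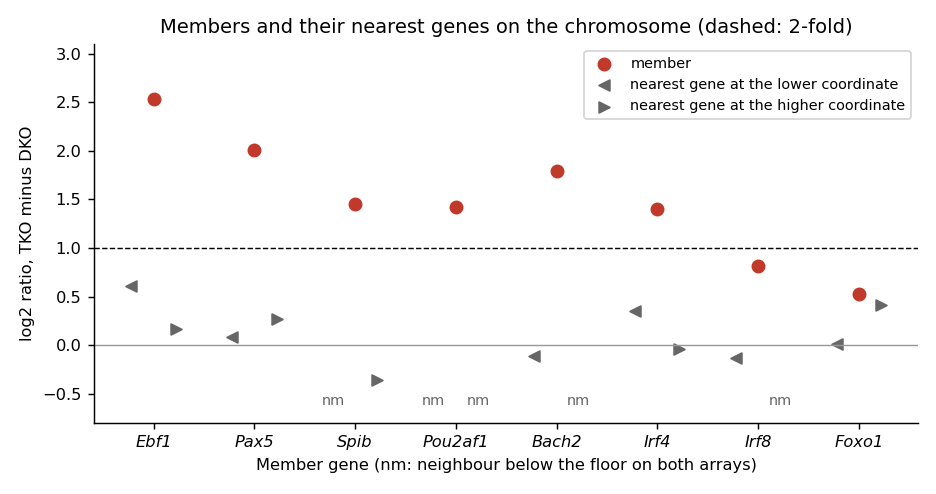
Log2 ratio (TKO minus DKO, y axis) of each member (red) and of its nearest protein-coding gene at the lower (left-pointing) and higher (right-pointing) coordinate; nm marks a neighbour below the floor on both arrays. The 11 measured neighbours lie between -0.36 and 0.61, below the dashed 2-fold line.

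Genes that Ebf1 or Pax5 are known to activate in B cells were mostly higher too. Each list count from here on is to be read beside the share over all measured genes, 3.58% upward and 0.532% downward. The lists too were chosen with earlier results of these data known, so such a comparison only describes them. Of the activated genes 13 were measured, 9 passed 2-fold upward and 0 downward, and the median was 1.53 on the log2 scale. Among the largest, the receptor Cd72 had 4956 on the TKO array and 1169 on the DKO array (4.24-fold), and the adaptor Blnk had 2878 on the TKO array and 723 on the DKO array (3.98-fold). Cd55, a complement regulator, had 277 on the TKO array and 53.0, below the floor, on the DKO array (at least 4.03-fold), and the inhibitory receptor Cd22 had 2967 on the TKO array and 829 on the DKO array (3.58-fold). The surrogate light chain genes Vpreb1 and Igll1, which Ebf1 activates in pro-B cells, were within 2-fold: each had a log2 ratio of 0.12, with 6691 on the TKO array and 6167 on the DKO array for Vpreb1, and 8657 on the TKO array and 7988 on the DKO array for Igll1. Fcer2a was below the floor on both arrays.

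Genes that Pax5 is known to repress in B cells were mixed. Among 9 measured genes, 3 passed 2-fold upward, 0 downward and 6 did neither, and the median was 0.15 on the log2 scale. The 3 were the myeloid receptor gene Csf1r, with 807 on the TKO array and 249 on the DKO array (3.23-fold), the chemokine receptor gene Ccr2, with 519 on the TKO array and 242 on the DKO array (2.15-fold), and Prdm1, the plasma cell regulator, with 152 on the TKO array and 44.0, below the floor, on the DKO array (at least 2.21-fold). Ccl3 had a log2 bound of 0.73. With the floor at the 75th percentile (431 on the TKO array, 417 on the DKO array) the DKO signals of these 3 lay below it, and 0 genes of the list had a ratio or bound past 2-fold. Notch1 had 7759 on the TKO array and 12640 on the DKO array (log2 ratio -0.70), and the costimulatory receptor Cd28 had -0.41.

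Among known targets of Foxo1 in lymphocytes, 2 of 9 measured genes passed 2-fold upward and 0 downward. The median was 0.57 on the log2 ratio scale, within a range from -0.22 to 1.38. The 2 were Bcl6, the germinal centre repressor, with 678 on the TKO array and 261 on the DKO array (2.60-fold), and the chemokine receptor Ccr7, with 265 on the TKO array and 105 on the DKO array (2.52-fold). With the 75th-percentile floor Bcl6 had only a bound under 2-fold and Ccr7 had no ratio. The trafficking regulator Klf2 had a log2 ratio of 0.84 and S1pr1 of 0.65. Il7r, the receptor for interleukin 7, had 7665 on the TKO array and 5159 on the DKO array (0.57), and Rag1 and Rag2 had -0.22 and -0.13. Cdkn1b and Ikzf1 had 0.07 and 0.02. Whether these genes follow Foxo1 was not tested.

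Upstream factors of early B cell specification were mostly within 2-fold. So were all measured genes, with 3.58% past it upward and 0.532% downward, so the count does not set the list apart. All 15 factors were measured, 1 passed 2-fold upward, 0 downward and 14 did neither, and the median was 0.02 on the log2 scale. The 1 was Mef2c, a MADS-box factor of lymphoid progenitors, with 1666 on the TKO array and 420 on the DKO array (3.97-fold). The E protein gene Tcf3 (E2A), an activator of Ebf1, had 3081 on the TKO array and 2820 on the DKO array (log2 ratio 0.13), and Ikzf1 had 9179 on the TKO array and 9059 on the DKO array (0.02). Id2, an inhibitor of E proteins, had 0.94, Spi1 (PU.1) 0.91 and Runx1 -0.65.

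Relatives of the members in the same families were mostly not 2-fold apart. The same held over all measured genes (3.58% upward, 0.532% downward), so the count does not set the relatives apart. Of 23 relatives with a probe set, 12 were below the floor on both arrays: Ebf2, Ebf3, Ebf4, Spic, Pou2f2, Pou2f3 and 6 Pax genes. Of the 11 measured, 1 passed 2-fold upward and 0 downward (median 0.15 on the log2 scale). The 1 was Irf5, with 352 on the TKO array and 122 on the DKO array (2.89-fold), which was not past 2-fold as the mean over probe sets and had no ratio with the 75th-percentile floor. Spi1 had a log2 ratio of 0.91, Irf7 of 0.70 and Irf2 of 0.42, and Irf1 and Irf3 had 0.13 and -0.21. Bach1, the closest relative of Bach2, had 2374 on the TKO array and 2284 on the DKO array (0.06), and the Foxo1 relatives Foxo3 and Foxo4 had -0.39 and 0.15.

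Most T lineage transcription factors had negative ratios, all under 2-fold, the opposite sign to the members. Of 9 measured, 0 were past 2-fold in either direction, beside 3.58% upward and 0.532% downward over all measured genes. That count does not set them apart. Of the 9, 7 had negative ratios, with a median of -0.29 beside -0.03 over all measured genes. The largest were Runx1, with 3127 on the TKO array and 4901 on the DKO array (log2 ratio -0.65), the Notch target Hes1 at -0.44, the chromatin organiser Satb1 at -0.36 and the selector Tox at 0.35. Runx1 and Ets1 also stand among the upstream factors of early B cell specification, so those lists are not independent.

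**Figure D4:**
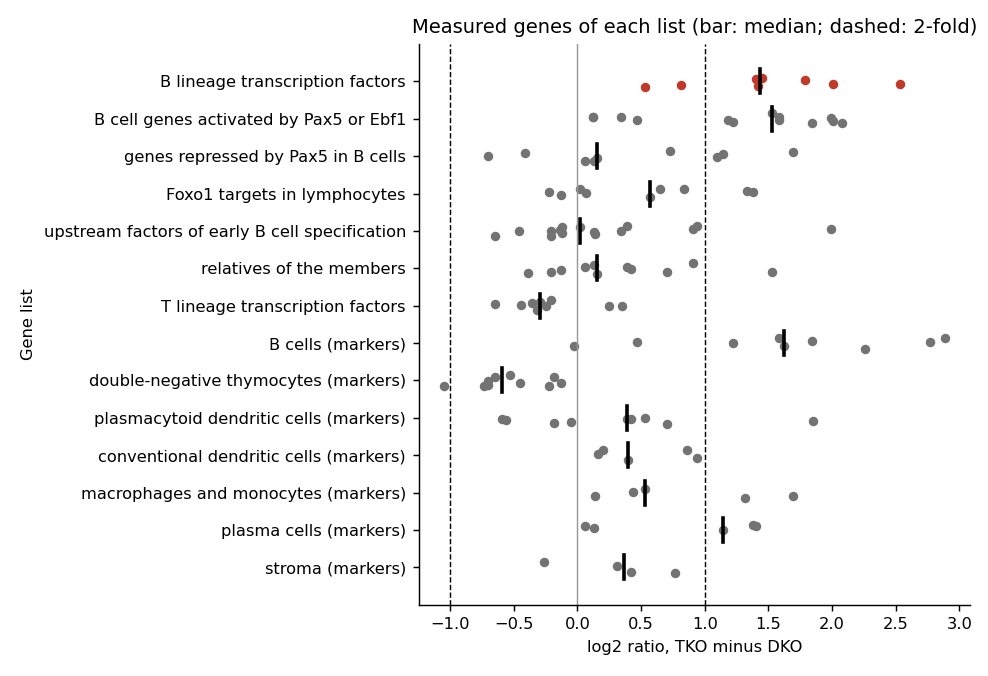
Log2 ratio (TKO minus DKO, x axis) of the measured genes of each list (rows; points are genes, black bars medians, dashed lines 2-fold; spread within a row is for visibility). The 8 members, in red at the top, have a median of 1.43, the Pax5 or Ebf1 activated genes 1.53 and the B cell markers 1.62, whereas the T lineage factors have -0.29 and the double-negative thymocyte markers -0.59.

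B cell markers were mostly higher on the TKO array, and double-negative thymocyte markers were lower. Among 9 measured B cell markers, 7 passed 2-fold upward and 0 downward, with a median of 1.62 on the log2 scale. The summed signal over all B cell markers with a probe set was 30487 on the TKO array and 18044 on the DKO array. Here and below, such sums include signals under the floor, not raised to it. Of the 9, 4 also stand among the Pax5 or Ebf1 activated genes. Bank1 had 1161 on the TKO array and 157 on the DKO array (7.39-fold), Ms4a1 (CD20) had 2394 on the TKO array and 352 on the DKO array (6.80-fold), and Ighm had 12741 on the TKO array and 13009 on the DKO array (log2 ratio -0.03). Fcer2a (CD23) was below the floor on both arrays. Of 10 measured markers of double-negative thymocytes all had negative ratios, with a median of -0.59 beside -0.03 over all measured genes. Of these markers 1, Il2ra (CD25), was past 2-fold (3162 on the TKO array, 6536 on the DKO array). The summed signal of the 10 was 75975 on the TKO array and 112222 on the DKO array. All 10 were above the floor on both arrays. Not all of them are particular to these cells, since B progenitors also use Rag1 and Rag2. The part of such cells in the members' ratios was not tested.

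Irf4, Irf8 and Spib are also used by plasma cells, monocytes and dendritic cells, whose markers were looked at for that reason. Plasma cell markers, a list that holds Irf4 itself, had 3 of 5 measured genes past 2-fold upward, with Sdc1 (CD138) at 1467 on the TKO array and 566 on the DKO array (2.59-fold), while Jchain and Xbp1 had log2 ratios of 0.06 and 0.13 and Tnfrsf17 was below the floor. Their summed signal was 16359 on the TKO array and 13793 on the DKO array. Macrophage and monocyte markers had 2 of 5 past 2-fold upward, Csf1r and Lyz2 (2131 on the TKO array, 855 on the DKO array), with Itgam and Cd14 below the floor on both arrays, and a summed signal of 3389 on the TKO array and 1422 on the DKO array. Plasmacytoid dendritic cell markers had 1 of 9 past 2-fold, Pacsin1 (3.61-fold higher), with the defining marker Siglech below the floor on both arrays. Of the 9 ratios 5 were positive and 4 negative, with a median of 0.39 on the log2 scale. Their summed signal was 22476 on the TKO array and 26184 on the DKO array. Ly6d, the brightest of them, weighed most in that sum, with 11116 on the TKO array and 16790 on the DKO array. Conventional dendritic cell markers had 0 of 5 past 2-fold, with Xcr1 and Flt3 below the floor on both arrays, and a summed signal of 947 on the TKO array and 623 on the DKO array. Stromal markers had 0 of 4 past 2-fold (summed signal 1099 on the TKO array, 1119 on the DKO array), and the 3 red cell precursor markers with a probe set did not reach the floor on either array (summed signal 81 on the TKO array, 73 on the DKO array). Beside 3.58% upward and 0.532% downward over all measured genes, the counts of both dendritic cell lists and of stroma do not set them apart. The part of the cell types above in the members' ratios was not tested.

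The members were last compared under the reported processing and 7 other ways of scaling, flooring and summarising the same signals. Irf8 ran from a log2 ratio of 0.78 to 0.84, Spib from 1.44 to 1.49 and Pou2af1 from 1.42 to 1.49; Spib and Pou2af1 have 1 probe set each, so averaging over probe sets could not move them. Ebf1 ran from 2.27 to 2.57, Bach2 from 1.71 to 1.85 and Foxo1 from 0.39 to 0.56. Irf4 ran from 0.94 to 1.44 and Pax5, where it had a ratio, from 1.13 to 2.05. The low ends for Bach2, Irf4 and Pax5 are means that include a set below the DKO floor and so are lower bounds. The Irf4 value of 1.25 with the 75th-percentile floor is a lower bound too.

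**Figure D5:**
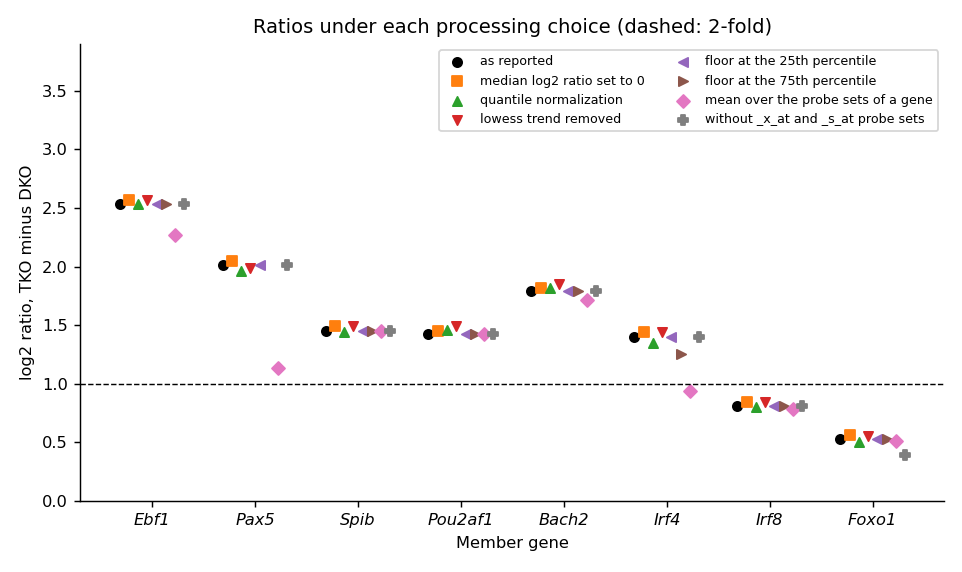
Log2 ratio (TKO minus DKO, y axis) of each member under the reported processing (black) and 7 alternatives (coloured symbols), with the dashed line at 2-fold. Irf4 at 0.94 and Pax5 at 1.13 as the mean over probe sets are lower bounds, since each mean includes a set below the DKO floor. Irf4 at 1.25 with the 75th-percentile floor is a lower bound too, because its DKO signal lay below that floor. Pax5 has no point at the 75th-percentile floor, and the other 6 members stay on their side of the line.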

How the data were processed

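Total RNA of lineage-negative thymocytes was hybridised to 2 one-colour arrays, 1 titled TKO and 1 titled DKO. Biotinylated cRNA was made from 6 ug of RNA, per the labels' protocols. Each probe set has 1 deposited intensity per array, not log-transformed; the submitters' processing notes name MAS5 and give neither a version nor its settings. Detection calls were not used here. Of 45037 probe sets, 34945 carried 1 platform gene, 99.4% of them matched by Entrez ID to a RefSeq table (GRCm38.p6) for current symbols. Signals below each array's median were raised to it, and genes below it on both arrays (6913) have no ratio. For genes with several probe sets, the one brightest on average over both arrays (log2) stood for the gene. Of each list, up to 4 genes with the largest absolute ratio are named, plus any gene at least 2-fold lower; other genes named were chosen after their values were seen, and the neighbours were added after seeing the data. The members and lists were chosen with earlier results of these data known. The ratio procedure was tested on simulated data, with known changes put only into genes whose DKO signal stood well above the floor. Dim genes such as Pax5 and sets that give only bounds were not covered by it. Python 3.11.15 was used, with statsmodels 0.14.6 for the lowess fit, pandas 2.3.3 and numpy 2.4.6 for the ratios, scipy 1.17.1 for the trimmed mean and matplotlib 3.10.9. Alternatives were median centring, quantile normalization, a lowess trend (span 0.3), a lower floor (25th percentile) and a higher one (75th percentile), averaging a gene over its measured probe sets, and omission of _x_at and _s_at probe sets.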

Additional observations from a re-analysis of the deposited data

How the results depend on the processing

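Across the 7 alternatives, 5 or 6 of the 8 members were at least 2-fold higher and 0 were 2-fold lower, and the median log2 ratio of the members ran from 1.27 to 1.49. The number of member probe sets at least 2-fold higher ran from 9 to 12. The share of all measured genes at least 2-fold higher was 6.06% with the floor at the 25th percentile and 2.04% with the floor at the 75th. Pax5 could give no ratio at the 75th-percentile floor, because both of its probe sets lay below it. Irf4 had only a lower bound there, a log2 ratio of at least 1.25. That setting is 1 of the 2 that gave 5 members; the other, the mean over probe sets, also gave the lowest median and includes sets below the DKO floor that give only bounds, so that Irf4 is at a log2 ratio of at least 0.94 there. No paired analysis was possible because each group has 1 array. Dim probe sets near the floor give bounds rather than ratios.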
